A study of Mus musculus with 8 samples.

Results

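Imprinted genes, which are transcribed from only the maternal or only the paternal chromosome, were followed in primary glomerular mesangial cells (MMC) of wild-type (WT) and miR-379KO mice. The 10 genes were taken by symbol from the 24639 gene entries counted in each library, and all 10 had an entry. Of these, 4 belong to the Dlk1-Meg3 domain of chromosome 12, namely Meg3, Rian, Mirg and Dlk1, and 6 lie at other loci, namely H19 and Igf2, Peg3, Grb10, Mest and Zdbf2. In RefSeq (GRCm38.p6), Dlk1 lies at chr12:109452485-109463336, Meg3 at chr12:109540996-109571729, Rian at chr12:109603945-109661716 and Mirg at chr12:109734981-109749458, all on the plus strand. H19 (chr7:142575530-142578146), Igf2 (chr7:142650768-142666816), Peg3 (chr7:6703892-6730462) and Grb10 (chr11:11930499-12037428) are on the minus strand, and Mest (chr6:30733506-30748466) and Zdbf2 (chr1:63200358-63314576) on the plus strand. All 10 passed the filter on low counts in each comparison. All mice were C57BL/6J, and miR-379KO mice are homozygous for a short CRISPR-Cas9 nickase deletion at miR-379, a microRNA between Rian and Mirg. MMC were grown from pooled, sieved glomeruli of each genotype in RPMI medium with foetal bovine serum, at low passage and without treatment. Each genotype was measured by both assays, total RNA and AGO2-IP, which gives 4 groups with replicates A and B, or n = 2, in each. Total RNA was sequenced as stranded poly(A) mRNA libraries, whereas AGO2-IP holds RNA recovered with anti-AGO2 beads from UV cross-linked, sonicated lysates. The study calls A and B independent samples, but no source used here ties them to separate animals, so p-values measure the spread between these samples. Parental alleles cannot be told apart in counts from one inbred strain.

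Imprinting is set in the germ line by DNA methylation at control regions and keeps one parental copy of a gene silent. In the Dlk1-Meg3 domain the maternal chromosome gives rise to Meg3, Rian and Mirg, long non-coding RNAs that host snoRNAs and microRNAs, and the paternal chromosome to the protein-coding gene Dlk1. AGO2 is the Argonaute protein that holds microRNAs on target RNAs, so AGO2-IP samples RNA near microRNA complexes together with whatever else the beads retain.

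The deleted microRNA and its nearest relatives are shown because their seeds, bases 2 to 8, are what AGO2 presents to targets. Mature sequences are from RefSeq (GRCm38.p6), 5′ to 3′, with the seed in capitals, and all are on the plus strand of chromosome 12. miR-379-5p lies at chr12:109709065-109709085, miR-379-3p at chr12:109709102-109709123, miR-411-3p at chr12:109710225-109710246 and miR-1193-5p at chr12:109715716-109715735.
miR-379-5p: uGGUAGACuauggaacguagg
miR-1193-5p: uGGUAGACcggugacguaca
miR-379-3p: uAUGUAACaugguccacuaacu
miR-411-3p: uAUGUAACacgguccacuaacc
Of the 114 mature sequences annotated between Dlk1 and Dio3, only miR-1193-5p shares the seed of miR-379-5p and only miR-411-3p shares that of miR-379-3p. Both relatives come from hairpins other than the deleted one.

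The match to the miR-379-5p seed, GTCTACC, was searched on the sense strand of the longest curated RefSeq transcript of each of the 10 genes, whatever else overlapped it. Meg3 held 2 matches and Igf2 held 1, and the other 8 genes held none. The matches are shown with 9 bases on either side, the match in capitals.
Meg3, base 14 of the transcript, chr12:109545411-109545417, plus strand: agccaggttGTCTACCccacagagc
Meg3, base 1891, chr12:109559069-109559075, plus strand: aggggaagtGTCTACCctgccaagg
Igf2, base 729, chr7:142654318-142654324, minus strand: gagggacgtGTCTACCtctcaggcc
The Igf2 match is outside its 3′-UTR. For comparison, 6.04% of 2119 lncRNA entries and 4.06% of 19135 annotated 3′-UTRs hold GTCTACC. The lncRNA share is not matched for length, and the Meg3 transcript searched has 11473 bases. The 3′-UTR share is no background for whole coding transcripts such as that of Igf2. A match is a run of letters and not a measured site.

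Total RNA libraries held 17168230 to 22660743 gene counts and AGO2-IP libraries 5587611 to 17095021. Rn45s, the ribosomal RNA precursor, and Lars2 together took 80.0% to 89.0% of AGO2-IP gene counts and 4.67% to 9.58% of total RNA counts. Of uniquely placed AGO2-IP reads, 46.6% and 49.7% in WT compared to 73.4% and 76.4% in miR-379KO fell outside counted genes, whereas the share was 6.41% to 8.81% in total RNA. All libraries expressed the mesangial markers Acta2, Vim, Pdgfrb and Des, whereas Thy1 had at most 3 counts in total RNA and Itga8 7 to 38. The endothelial markers Pecam1, Cdh5, Kdr and Tek had at most 6 counts in total RNA.

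In total RNA the 10 genes spanned a wide range of abundance, given here as CPM, counts scaled to the library total, over kilobases of exon (CPM per kb). Grb10, an adaptor protein that dampens insulin and IGF receptor signalling, was highest in WT at 91.4 ± 3.39 (SD, n = 2). It was followed by Peg3, a zinc finger protein, at 43.6 ± 16.3 and Rian at 36.9 ± 7.92, whose replicates overlapped each other. Then came Meg3 at 3.29 ± 2.42, Mirg at 1.58 ± 0.0281, H19, a fetal lncRNA, at 0.944 ± 1.10 and Dlk1, a transmembrane protein of precursor cells, at 0.801 ± 0.00676. Each of these overlapped its neighbour in the order. Mest, an α/β-hydrolase-fold protein, was lower at 0.420 ± 0.0471, Igf2, the fetal growth factor, lower again at 0.209 ± 0.0395, and Zdbf2, a zinc finger gene, lowest at 0.0881 ± 0.0346, with no overlap between these neighbours.

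Among the 16819 entries with counts in total RNA, ranked by their WT level, Grb10 stood at percentile 96.3 of CPM per kb, Peg3 at 91.5 and Rian at 89.8. Meg3 stood at 47.9 and the other 6 between 20.8 and 39.7. Abundant members were therefore Grb10, Peg3 and Rian, and 5 of the 10, Mirg, H19, Igf2, Mest and Zdbf2, averaged under 50 counts a library.

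**Figure D1:**
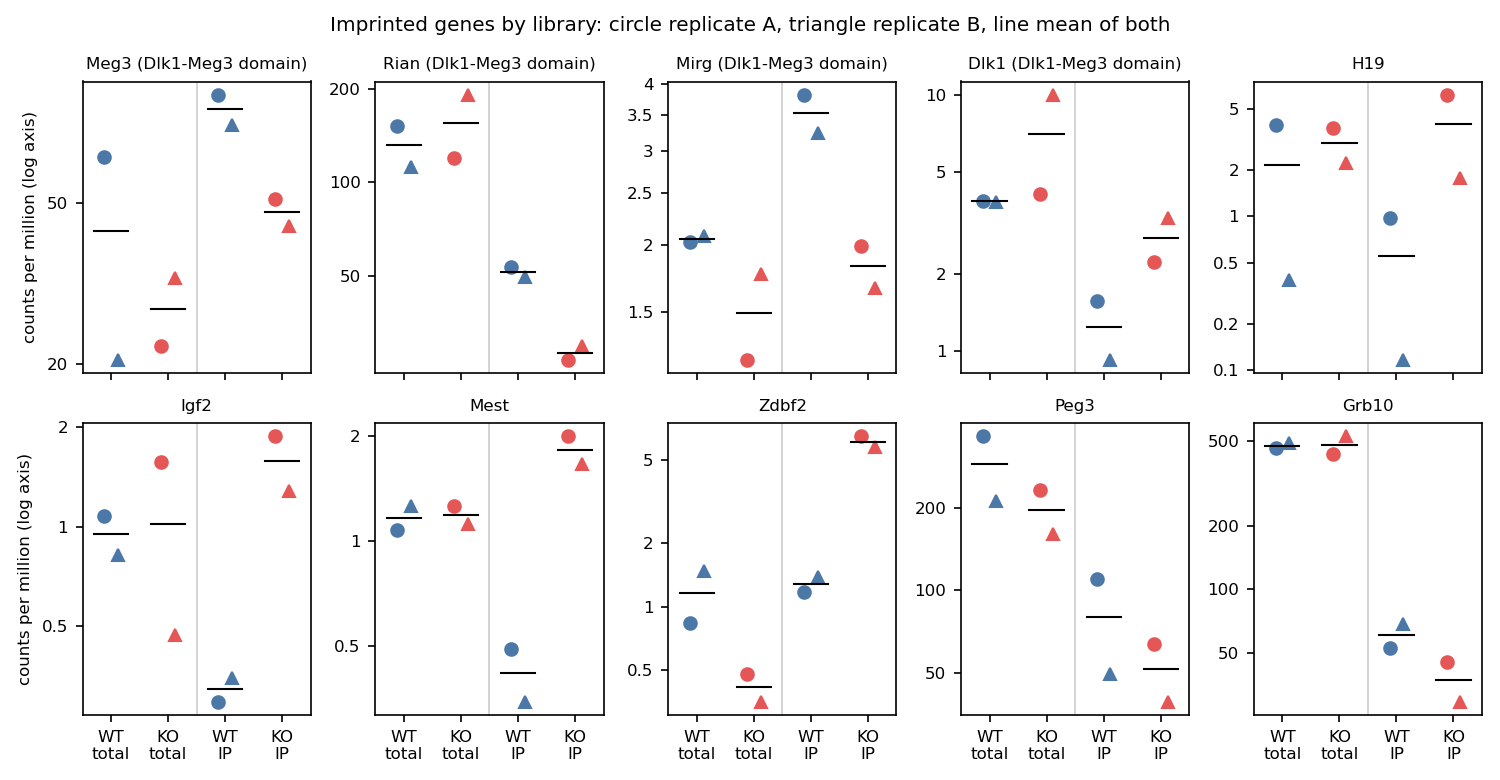
CPM of each gene in each library (vertical log axes, separate per gene), scaled within each assay. Circles are replicate A, triangles replicate B, blue WT, red miR-379KO, and lines the means of 2. Meg3 in WT total RNA spans 20.4 to 64.8, while its AGO2-IP values in the genotypes do not overlap.

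The first comparison asked whether loss of miR-379 altered the steady-state level of its own domain or of other imprinted genes. None of the 10 genes passed in total RNA by edgeR's quasi-likelihood test (adjusted p = 0.9997 for each). The background was 0% of 12321 genes called and 0.739% at an unadjusted p under 0.05, and no member was among these. In these bulk samples, fewer expressing cells and less RNA per cell cannot be told apart. DESeq2 called 0 genes in the table as well, with 105 at an unadjusted p under 0.05.

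For Meg3, total RNA held 1086 counts in WT A, 373 in WT B, 509 in miR-379KO A and 553 in miR-379KO B, or 64.8, 20.4, 22.1 and 32.5 CPM. WT A was well above the other 3 libraries, and the fitted log2 fold change of miR-379KO over WT was −0.64 ± 0.53 (SE). Without WT A it was 0.42, so the sign of the Meg3 difference rested on that library. Rian, which hosts C/D-box snoRNAs, had 152 and 112 CPM in WT against 120 and 192 in miR-379KO, overlapping ranges with a log2 fold change of 0.24 ± 0.30.

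Mirg, the lncRNA downstream of miR-379, had 34 and 38 counts in WT against 28 and 30 in miR-379KO total RNA. In CPM these were 2.03 and 2.08 against 1.22 and 1.76, lower in both miR-379KO libraries, with a log2 fold change of −0.47 ± 0.47. Dlk1 had 3.88 and 3.83 CPM in WT against 4.13 and 10.04 in miR-379KO. Both miR-379KO libraries lay above WT, but replicate B alone was far above, and the log2 fold change was 0.87 ± 0.47.

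At the other loci the genotypes overlapped for every gene but Zdbf2. Grb10 had 466 and 491 CPM in WT against 434 and 528 in miR-379KO, with a log2 fold change of 0.01 ± 0.24. Peg3 had 365 and 213 CPM in WT against 233 and 160 in miR-379KO, replicate A above replicate B in both genotypes, and a log2 fold change of −0.55 ± 0.34. H19 ranged from 0.383 CPM in WT B to 3.94 in WT A, a 10.3-fold gap within one genotype, with 3.78 and 2.23 in miR-379KO.

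Igf2, which shares an imprinting control region and enhancers with H19, had 18 and 15 counts in WT against 36 and 8 in miR-379KO total RNA. Mest had 18 and 23 counts in WT against 29 and 19 in miR-379KO. Neither separated the genotypes, with log2 fold changes of 0.13 ± 0.70 and 0.03 ± 0.49. Zdbf2 had 14 and 27 counts in WT against 11 and 6 in miR-379KO, lower in both miR-379KO libraries, with a log2 fold change of −1.45 ± 0.62 that did not pass (unadjusted p = 0.0563 in edgeR). Of the 10, Dlk1 was higher without overlap and Mirg and Zdbf2 lower, against 9.89% and 9.07% of all tested genes without overlap in each direction.

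In AGO2-IP, Meg3, Rian and Mirg fell in miR-379KO, as did Grb10, and Dlk1, H19, Igf2, Mest and Zdbf2 rose. Peg3 did not pass. Thus 9 of 10 members were called by edgeR, where 30.9% of 13505 tested genes were called, 21.4% higher and 9.52% lower, so calls were common in this comparison. The same 9 had an unadjusted p under 0.05, beside 42.5% of all genes, and in the same 9 the replicates of the genotypes did not overlap, beside 68.4% of all genes, 36.1% higher and 32.2% lower. Dlk1, H19, Igf2, Mest and Zdbf2 entered the test only through their miR-379KO libraries, since in WT fewer than 2 libraries reached the minimum of the low-count filter, so for these 5 a higher value was favoured by the filter itself. With no filter on low counts, 4 of these 5 were called higher and Dlk1 was not (0.90, edgeR adjusted p = 0.0888). Meg3, Rian, Mirg, Grb10 and also Peg3 were called lower in that fit. It called 5150 of 23572 genes, 2784 higher and 2366 lower.

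The maternally expressed lncRNAs of the domain fell by similar amounts. Meg3 had 92.3 and 77.6 CPM in WT AGO2-IP compared to 51.2 and 43.7 in miR-379KO, without overlap, a log2 fold change of −0.84 ± 0.25 (adjusted p = 0.0155). Rian had 53.3 and 49.5 CPM in WT against 26.6 and 29.6 in miR-379KO, without overlap, with a log2 fold change of −0.87 ± 0.24 (adjusted p = 0.00845). Mirg had 39 and 28 counts in WT against 17 and 13 in miR-379KO, or 3.82 and 3.24 against 1.99 and 1.66 CPM, with a log2 fold change of −0.95 ± 0.36 (adjusted p = 0.0460).

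All 3 were thus near 0.5-fold of WT in AGO2-IP, with fitted folds of 0.559, 0.547 and 0.519. Of these 3, only Rian held its call when each AGO2-IP library was left out in turn. Meg3 lost it without WT A (adjusted p = 0.0775) or miR-379KO B (0.147), and Mirg lost it without WT A (0.126), miR-379KO A (0.0849) or miR-379KO B (0.276). DESeq2 called Meg3 and Rian and not Mirg (adjusted p = 0.284), and when only genes averaging 50 counts or more were fitted, neither Meg3 (−0.47, adjusted p = 0.214) nor Rian (−0.49, 0.171) was called. An offset for GC content and length took Mirg to −0.45 (edgeR adjusted p = 0.379). Over all alternatives that tested them, Rian was called in 12 of 13, Meg3 in 8 of 13 and Mirg in 4 of 12.

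Dlk1, on the paternal chromosome of the same domain, went the other way. It had 16 and 8 counts in WT AGO2-IP compared to 19 and 26 in miR-379KO, or 1.57 and 0.925 against 2.23 and 3.32 CPM. The log2 fold change was 1.11 ± 0.42 (edgeR adjusted p = 0.0456). Dlk1 was called in 5 of 12 alternatives. The call was lost by DESeq2 (adjusted p = 0.297) and without WT B, miR-379KO A or miR-379KO B, among others.

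**Figure D2:**
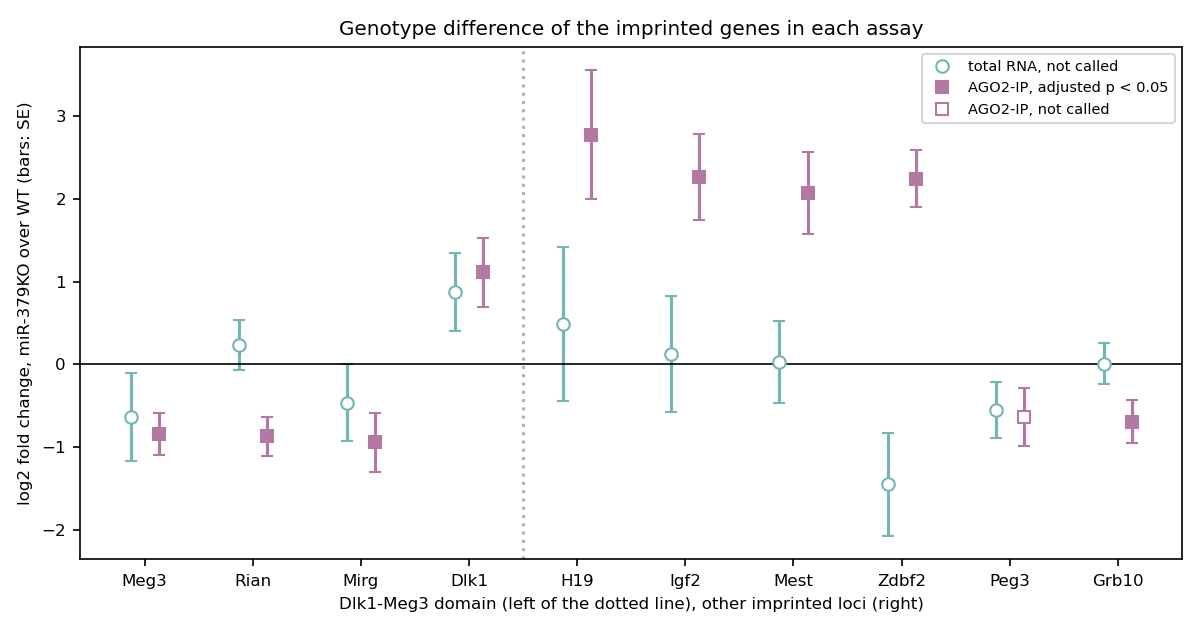
Log2 fold change of miR-379KO over WT for each gene (vertical axis, bars SE) in total RNA (circles) and AGO2-IP (squares), each from 2 against 2 libraries. Filled symbols have an adjusted p under 0.05; no circle is filled, and 9 of 10 squares are.

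Outside the domain, the genes of low abundance rose in AGO2-IP. Zdbf2 had 12 counts in each WT library and 55 and 45 in miR-379KO, or 1.18 and 1.39 against 6.45 and 5.75 CPM. The log2 fold change of 2.25 ± 0.34 (edgeR adjusted p = 0.000188) passed in every alternative that tested it, with adjusted p up to 0.0338. Its total RNA values went in the opposite direction, as given above.

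H19 had 10 and 1 counts in WT AGO2-IP compared to 53 and 14 in miR-379KO, a log2 fold change of 2.78 ± 0.78 (edgeR adjusted p = 0.0278). The ranges did not overlap, but the WT replicates differed 8.48-fold in CPM, and without miR-379KO A the log2 fold change was 1.55 (adjusted p = 0.129). Igf2 had 3 counts in each WT library and 16 and 10 in miR-379KO, with a log2 fold change of 2.27 ± 0.52 (adjusted p = 0.00285). Its call was lost without WT A (0.0516), miR-379KO A (0.126) or miR-379KO B (0.0513).

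Mest had 5 and 3 counts in WT AGO2-IP compared to 17 and 13 in miR-379KO, with a log2 fold change of 2.08 ± 0.50 (edgeR adjusted p = 0.00382), lost without miR-379KO A (0.0895) or B (0.0683). DESeq2 called none of H19, Igf2 and Mest (adjusted p = 0.206, 0.136 and 0.130). The WT side of each of these values rests on 1 to 10 counts a library.

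The abundant genes of other loci were lower or not called. Grb10 had 52.4 and 68.2 CPM in WT AGO2-IP compared to 45.2 and 29.3 in miR-379KO, a log2 fold change of −0.69 ± 0.26 (edgeR adjusted p = 0.0468). Grb10 was called in 4 of 13 alternatives. DESeq2 did not call it (adjusted p = 0.112), and it lost the call without WT B or miR-379KO B, among others. Peg3 had 110.3 and 49.7 CPM in WT against 63.8 and 39.2 in miR-379KO, overlapping ranges with replicate A again above B, and a log2 fold change of −0.64 ± 0.35 (adjusted p = 0.181). It passed without WT B (−1.14, adjusted p = 0.0161) or miR-379KO A (−1.10, 0.0137), and was −0.01 without WT A.

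The AGO2-IP difference of genes in general followed their level in total RNA, and the members were read against genes of like level. Of the 1347 tested genes averaging over 10 to 100 total RNA counts, 41.3% passed as higher and 0.297% as lower, and the median log2 fold change was 0.9995 (quartiles 0.46 and 1.48). H19, Igf2, Mest and Zdbf2 belong there and lay above the upper quartile. Mirg belongs there too and was 1 of the 4 genes of this class called lower. It reached the low-count minimum in both genotypes. In contrast, 80.8% of tested genes of this class reached it in both miR-379KO and not in both WT libraries. Lower calls in this class were thus disfavoured by the filter itself. With no filter, 0.883% of 2378 genes of this class were called lower. Of the 5951 genes averaging over 100 to 1000 counts, 4.65% passed as higher and 5.14% as lower, with quartiles of −0.40 and 0.29. Meg3 lay below that range and Dlk1, which averaged 100.25 counts and so sat at the edge of the class, above it.

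Of the 3651 genes averaging over 1000 counts, 26.4% passed as lower and 0.192% as higher, and the median was −0.45, between quartiles of −0.67 and −0.23. Grb10, at −0.69, and Rian, at −0.87, lay below the lower quartile of this class, and Peg3, at −0.64, lay within it. At the low end, 88.4% of 998 genes with no total RNA count passed as higher and 0.401% as lower, with a median of 1.94. Among 1558 genes averaging over 0 to 10 counts, 74.8% passed as higher.

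The filter on low counts had a part in these shares. Of tested genes, 98.5% with no total RNA count, 92% of those over 0 to 10, 80.8% over 10 to 100, 21.1% over 100 to 1000 and 0.0822% over 1000 reached its minimum in both miR-379KO libraries and not in both WT libraries. With no filter, the shares called higher in the same order were 16.5% of 6737, 24.1% of 4561, 18.1% of 2378, 2.29% of 6243 and 0.0821% of 3653 genes, and the medians 1.48, 1.22, 0.62, −0.29 and −0.66, on a scale whose median over all genes was 0.36 and not −0.01. The shares called lower with no filter were 0.0594%, 0.57%, 0.883%, 11.9% and 43.1% in the same order. The 10 members kept their places against the quartiles of their classes in that fit, from 0.052 to 1.16 over 10 to 100 counts, −0.61 to 0.079 over 100 to 1000 and −0.88 to −0.44 over 1000.

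Summed markers of 3 other cell types were higher in miR-379KO AGO2-IP, and those of a further type, Wt1 and Podxl of podocytes, were not. The 4 endothelial markers summed to 2.31 to 3.63 CPM in WT AGO2-IP and 5.75 to 6.77 in miR-379KO AGO2-IP, and to at most 0.522 in total RNA. They averaged over 0 to 10 total RNA counts, a class in which 74.8% of tested genes were called higher, or 24.1% with no filter. The 4 macrophage and leukocyte markers (Ptprc, Adgre1, Csf1r and Cd68) summed to 3.35 to 3.63 CPM in WT AGO2-IP and 8.45 to 12.1 in miR-379KO AGO2-IP, and to 1.79 to 4.16 in total RNA. The 4 tubule markers (Lrp2, Slc34a1, Umod and Aqp2) summed to 4.71 to 6.36 and 12.8 to 17.8 CPM in AGO2-IP of WT and miR-379KO, and to 1.43 to 25.9 in total RNA. Wt1 had 5.90 to 14.9 CPM in WT AGO2-IP and 4.98 to 8.33 in miR-379KO AGO2-IP, and Podxl 3.47 to 4.51 and 3.32 to 4.11, so both overlapped. The share of reads outside counted genes was higher in miR-379KO AGO2-IP than in WT AGO2-IP, as given above, and the part of this share and of these markers in the differences was not tested.

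**Figure D3:**
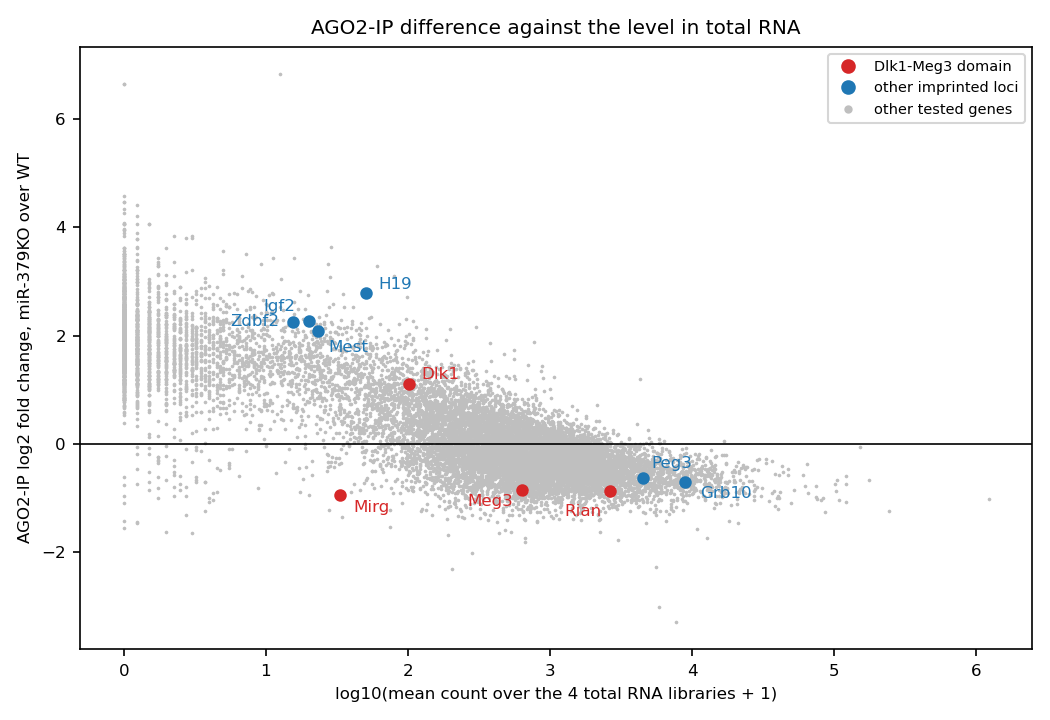
AGO2-IP log2 fold change of miR-379KO over WT (vertical axis) against log10 of the mean count over the 4 total RNA libraries plus 1 (horizontal axis) for all 13505 tested genes (grey). Tested genes slope from a median of 1.94 at 0 counts to −0.45 above 1000. Of the former, 98.5% reached the low-count minimum in both miR-379KO and not in both WT libraries. Mirg lies apart from H19, Igf2, Mest and Zdbf2 at a similar level, but only Mirg of these reached that minimum in both genotypes.

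To set AGO2-IP counts against a background, the rate per kilobase was taken from 4801 protein-coding autosomal genes for which no total RNA library had a count. This measure was chosen after the data had been seen. These silent genes gave 1.40 and 0.945 counts per kb in WT AGO2-IP A and B against 3.19 and 3.63 in miR-379KO. For the 2225 of them with exon lengths in the range of the members, the ratio of observed to expected counts had medians of 0.752 to 0.945 and 95th percentiles of 2.39 to 2.92 in the 4 libraries.

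Igf2 gave 0.472, 0.701, 1.11 and 0.608 times the silent rate in WT A, WT B, miR-379KO A and miR-379KO B. Zdbf2 gave 0.651, 0.968, 1.31 and 0.944 times, and Mest 1.28, 1.14, 1.92 and 1.29 times. These 3 genes, called higher in miR-379KO above, were thus in the range of silent genes in all 4 libraries. Dlk1, at 2.37, 1.76, 1.24 and 1.49 times, was also at or under the 95th percentiles of silent genes, and relative to this rate its WT values were the larger.

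H19 was at 3.11 and 0.463 times the silent rate in WT and at 7.27 and 1.69 times in miR-379KO. Replicate A of each genotype exceeded the 95th percentile of silent genes and replicate B did not, so the genotypes overlapped. By contrast, the other 5 members were far above silent genes in WT and closer to them in miR-379KO. Mirg went from 21.4 and 22.8 times in WT to 4.10 and 2.75 times in miR-379KO, Meg3 from 51.7 and 54.8 to 10.6 and 7.27, and Rian from 108 and 126 to 19.9 and 17.8. Peg3, at 121 and 68.7 against 25.8 and 12.8, and Grb10, at 72.7 and 119 against 23.1 and 12.1, moved in the same direction outside the domain. The silent rate itself was higher in both miR-379KO libraries, as given above, so a gene with an unchanged count would also move closer. Ratios of other expressed genes were not computed, so this shift is not shown to be particular to the members.

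**Figure D4:**
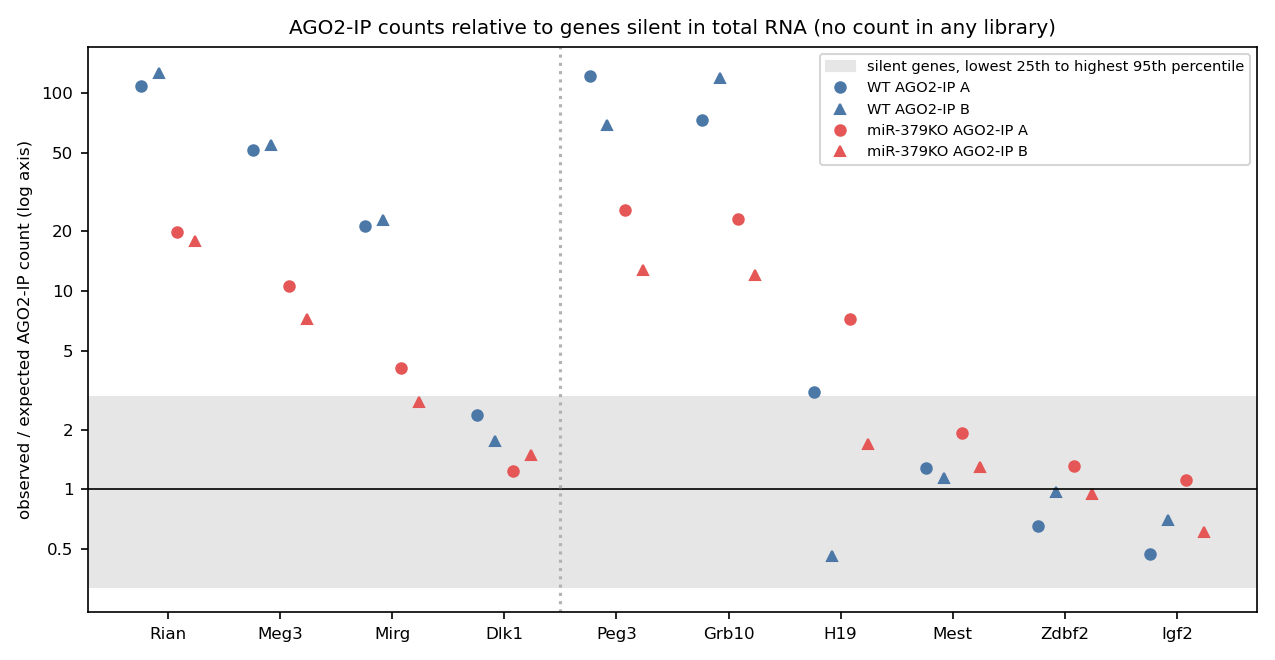
Observed AGO2-IP count divided by the count expected from exon length at the rate of genes silent in total RNA (vertical log axis), per library; circles A, triangles B, blue WT, red miR-379KO. The grey band runs from the lowest 25th to the highest 95th percentile of silent genes; Mest, Zdbf2, Igf2 and Dlk1 lie in it in all 4 libraries.

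Ratios within a library do not depend on scaling between libraries. In AGO2-IP, Rian gave 0.578 and 0.638 counts per Meg3 count in WT against 0.521 and 0.678 in miR-379KO, overlapping ranges. Mirg gave 0.0415 and 0.0417 counts per Meg3 count in WT against 0.0390 and 0.0380 in miR-379KO. These maternally expressed RNAs thus kept nearly fixed proportions in AGO2-IP, with Mirg per Meg3 slightly lower in miR-379KO and without overlap, although each Mirg value rests on 13 to 39 counts.

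In total RNA the proportions were different and less even. Rian gave 2.35 and 5.50 counts per Meg3 count in WT against 5.41 and 5.91 in miR-379KO, so WT A stood apart for its high Meg3. Mirg per Meg3 was 0.0313 and 0.102 in WT against 0.0550 and 0.0543 in miR-379KO. Dlk1 per Meg3 was 0.0599 and 0.188 against 0.187 and 0.309 in total RNA, overlapping, and 0.0170 and 0.0119 against 0.0436 and 0.0760 in AGO2-IP, without overlap. The Dlk1 counts in AGO2-IP, 8 to 26 a library, were in the range of silent genes, whose rate was higher in miR-379KO. Igf2 per H19 overlapped between genotypes in both assays, from 0.210 to 2.14 in total RNA and from 0.3 to 3 in AGO2-IP.

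**Figure D5:**
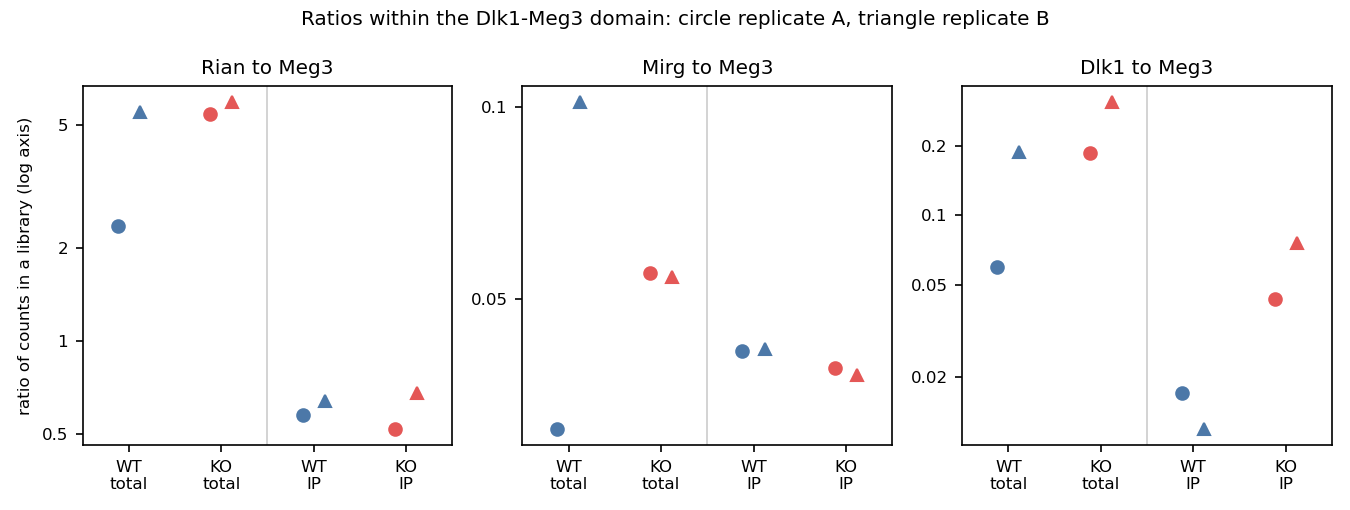
Ratio of counts within each library (vertical log axes) for Rian, Mirg and Dlk1 to Meg3; circles A, triangles B, blue WT, red miR-379KO. Rian to Meg3 is 0.521 to 0.678 in the 4 AGO2-IP libraries and 2.35 to 5.91 in total RNA.

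Whether AGO2-IP differences exceeded those in total RNA was tested by the interaction of genotype and assay. No member was called by edgeR (0 of 10, background 0% of 17429), and 4 had an unadjusted p under 0.05, beside 15.7% of all tested genes. DESeq2 called no member either, and 120 genes in all. Zdbf2 had the largest interaction at 3.50 ± 0.67 on the log2 scale (adjusted p = 0.211). It was 3.90 without WT total RNA A and 2.87 without B, for a gene at the silent rate in AGO2-IP. Rian, at −1.33 ± 0.38 (adjusted p = 0.235), was −1.24 without WT total RNA B. With the replicate block and the GC and length offset together Rian was called (−1.70, edgeR adjusted p = 0.0412), beside 53 of 17429 genes. Mest, at 1.88 ± 0.82, and Grb10, at −0.91 ± 0.42, were called in no alternative. The Meg3 and Mirg interactions were −0.45 ± 0.54 and −0.68 ± 0.60. RLE factors moved the median interaction of all genes from 0.01 to 0.28, so values here are relative to the chosen scaling.

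AGO2-IP was next compared to total RNA within each genotype, a contrast in which assay and library protocol change together. At an adjusted p under 0.05 and a 2-fold difference, 4 members were higher in AGO2-IP in WT, where 43.1% of 17429 genes were called, 35.7% higher and 7.33% lower. These were Meg3 at 3.54 ± 0.42, Mirg at 3.26 ± 0.43, Zdbf2 at 2.60 ± 0.49 and Rian at 1.14 ± 0.27 on the log2 scale. The other 6 ranged from −0.50 to 1.01. All these values rest on the scaling between the assays. With CPM scaled within each assay, mean Rian in WT was 132 in total RNA and 51.4 in AGO2-IP. The direction for Rian thus depended on the scaling. Mean CPM in WT total RNA and AGO2-IP was 1.16 and 1.28 for Zdbf2, 42.6 and 84.9 for Meg3, and 2.05 and 3.53 for Mirg. Rian dropped below 2-fold when any 1 of the 4 AGO2-IP libraries was left out (0.85 to 0.89), and Grb10 was called lower without WT AGO2-IP B (−1.01).

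In miR-379KO, on the same scaling between the assays, 61% of genes were called, 41.6% higher and 19.3% lower. Meg3 at 3.08 ± 0.41 and Mirg at 2.58 ± 0.45 were again higher in AGO2-IP, while Rian, at −0.19 ± 0.27, was not called. Zdbf2 at 6.09 ± 0.51, Mest at 2.88 ± 0.54 and Igf2 at 2.86 ± 0.64 were higher, and Grb10 was lower at −1.41 ± 0.30. The 3 higher genes outside the domain are those at the silent rate in AGO2-IP. H19, at 2.69 ± 1.12, was not called (adjusted p = 0.0732) but passed without WT total RNA A (2.62, 0.00367) or B (2.63, 0.00443), and Dlk1, at 0.94 ± 0.45, passed without miR-379KO total RNA B (1.60, 0.0158).

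The domain from Dlk1 to Dio3 was then read by coordinates. It holds 77 entries, of which 61 are microRNA genes, 7 snoRNA genes and 9 others, and 6 of the 77 had enough counts to be tested in AGO2-IP. Mir379 starts 47.34 kb after the end of Rian and ends 25.86 kb before Mirg, and Meg3 starts 77.66 kb after Dlk1. The Mir379 entry had 0 counts in all total RNA libraries, 0 and 4 in WT AGO2-IP compared to 1 and 0 in miR-379KO AGO2-IP. A count of 0 allows up to 3, so the deletion could not be checked from these counts.

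All 61 microRNA entries summed to 91 and 65 counts in WT AGO2-IP compared to 56 and 57 in miR-379KO, with 53 of them seen at least once, and to 0 to 4 counts in total RNA. The 7 snoRNA entries, which lie inside Rian, summed to 49 and 25 counts in WT AGO2-IP compared to 20 and 26 in miR-379KO. Their most counted entry was AF357359, with 22 and 9 counts in WT against 7 and 10 in miR-379KO. Within Mirg, 8 microRNA entries had AGO2-IP counts, none above 3 in any library. Mir335, within Mest, had 1 to 2 counts per AGO2-IP library, while Mir770 within Meg3 and Mir675 within H19 had 0 in every library.

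The remaining genes of the domain were scarce. Dio3, a paternally expressed deiodinase at the far end, had 39 and 84 counts in WT total RNA against 59 and 12 in miR-379KO, a log2 fold change of −1.06 ± 0.69 that did not pass in edgeR (adjusted p = 0.9997). In AGO2-IP it had 1 to 6 counts a library and was not tested.

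A list of 57 further genes, chosen from general knowledge of imprinting, gave 56 entries. Whether each is imprinted in MMC was not measured. In total RNA 33 were tested and 0 were called by edgeR or DESeq2 (background 0%), and 1 had an unadjusted p under 0.05. That gene, named here after its values were seen, was Ppp1r9a, a protein phosphatase scaffold gene, with 131 and 150 counts in WT against 99 and 67 in miR-379KO. In AGO2-IP 33 were tested and 11 called by edgeR, 6 higher and 5 lower, beside 30.9% of all genes. Their median log2 fold change was 0.26, and DESeq2 called 2.

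Calcr, the calcitonin receptor, had 2 to 8 counts in WT AGO2-IP and 15 to 23 in miR-379KO, with 0 to 1 in total RNA. Usp29, which neighbours Peg3 and shares its promoter region, had 9 and 3 counts in WT AGO2-IP compared to 22 and 19 in miR-379KO, and Mkrn3 had 4 and 3 against 13 and 8. The rises of these genes, by 2.10, 1.96 and 1.75 on the log2 scale, were again at few counts. Dcn and Sfmbt2 rose by 1.31 and 1.09. For Dcn, replicates A and B of WT AGO2-IP held 18 and 8 counts, and those of miR-379KO 29 and 27. Calcr, Usp29, Mkrn3 and Dcn did not reach the low-count minimum in both WT libraries and entered the test through miR-379KO. The filter itself thus favoured a higher value for them, and the number of higher calls in this list rests in part on such genes.

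Trappc9, a subunit of a vesicle tethering complex, rose at a higher count, with 295 and 207 in WT AGO2-IP compared to 414 and 459 in miR-379KO (log2 fold change 1.02 ± 0.24, edgeR adjusted p = 0.00355). It averages 1004 total RNA counts, at the edge between the class in which 0.192% of genes were called higher and the one below it, in which 4.65% were. H13, a signal peptide peptidase, fell by 0.89 on the log2 scale (adjusted p = 0.00866) and Cd81, a tetraspanin, fell by 0.79 (0.0345). Igf2r, the receptor that clears IGF2, and Nap1l4, a histone chaperone, fell by 0.65 and 0.70 (0.0366 and 0.0383). Like Grb10, these 4 genes average over 1000 total RNA counts, the class in which 26.4% of genes were called lower.

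Genes whose level ran most like that of Meg3 over the 8 libraries were ranked by Pearson r of log2 CPM among 4855 genes, as a description over libraries that differ in assay, depth and ribosomal content. Carmn had r of 0.917, Malat1 0.828, Rn45s 0.826, Lars2 0.796 and Dnm3os 0.794. Mirg was at rank 7 with 0.773 and Rian at rank 488 with −0.43. Rn45s and Lars2, whose share of counts differs between the assays, were among the closest.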

How the data were processed

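The deposited values are raw gene counts for 8 libraries, made by the authors and not normalized. Per the labels and the study's methods, reads were aligned to mm10 with TopHat and Bowtie2 and counted on RefSeq genes with HTSeq 0.6.0 in reverse-stranded mode. AGO2-IP libraries were made by adapter ligation as for small RNA, so assay and protocol change together. Lines for reads outside genes, ambiguous or not uniquely placed were kept out of library sizes.

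Entries were matched to RefSeq GRCm38.p6 by symbol or synonym (98.7% of 24639). Counts were tested in edgeR 4.0.16 (R 4.3.3) with TMM factors, a minimum count of 10 in filterByExpr and the robust quasi-likelihood test, and p-values were adjusted over all genes tested by Benjamini-Hochberg. SE is the log2 fold change divided by the root of F. CPM uses TMM-scaled totals of each assay. The procedure was run on simulated counts with changes planted only in genes averaging at least 50 counts. It therefore gives no measure of recovery for genes below that level. DESeq2 1.42.0, RLE factors, other filters, a GC and length offset (lowess span 0.3), a replicate block, all 8 libraries in one fit and omission of each library were alternatives.

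Named genes were the 10 members, called genes of a list of other imprinted genes (up to 8 by p, and those averaging at least 1000 total RNA counts), entries inside the hosts, and the 5 genes most like Meg3 (mean of at least 50 counts in both assays, 0.5 added to CPM). Members, lists and rules were chosen with earlier results of these data known. Intervals were not computed, and counts of 0 allow up to 3 for counting error only.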

Additional observations from a re-analysis of the deposited data

How the results depend on the processing

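Over the alternatives to the fit of AGO2-IP in miR-379KO against WT, all 10 members kept their direction. The number called went from 9 to 3 with DESeq2, to 2 with all 8 libraries in one fit and to 0 with a mean of at least 50 counts, where 4 members were tested. Leaving out 1 library gave 3 to 8. Calls over all genes went from 4173 to 838, 686 and 274 in those fits, and to 918 without miR-379KO B and 2351 without WT B, where fewer libraries were fitted. The replicate block gave 7, and with the GC and length offset 6. Other imprinted genes went from 11 called to 2 with DESeq2, 2 with the mean of at least 50 counts, 6 with the GC and length offset, 6 with that offset and the block, and 0 with all 8 libraries. Leaving out 1 library gave 2 to 11, the lowest without miR-379KO B and 3 without WT B.

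Same-letter libraries deviated with r of −0.11 in total RNA and 0.04 in AGO2-IP over genes, so the letters A and B were not taken as pairs. In total RNA the replicate block called 0 genes and the crossed pairing, added after the data were seen, called 1, which rose. The interaction called 1 member with the block and the GC and length offset together, beside 53 of 17429 genes. Among other imprinted genes it called 2 with DESeq2 and 0 to 4 without 1 library. With a mean of at least 50 counts, 2 members instead of 4 in WT and 2 instead of 6 in miR-379KO were called in AGO2-IP against total RNA, 5 being tested.

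Without 1 library, the fitted log2 fold change in total RNA ranged from −1.25 to 0.42 for Meg3, −0.14 to 0.56 for Rian, −0.38 to 2.96 for H19, −0.97 to 0.73 for Igf2, −0.076 to 0.15 for Mest and −0.13 to 0.17 for Grb10. Igf2 also turned to −0.078 with the block, −0.069 with the block and the offset and −0.024 with the crossed pairing. The interaction without 1 library ranged from −1.38 to 0.069 for Meg3, −0.45 to 0.77 for Dlk1, −0.26 to 4.57 for H19 and −0.65 to 0.59 for Peg3. Dlk1 turned to −0.038 with no filter and Peg3 to 0.098 with a mean of at least 50 counts. For AGO2-IP against total RNA without 1 library, H19 in WT ranged from −1.91 to 2.88, Peg3 from −0.27 to 0.93 in WT and −0.057 to 0.67 in miR-379KO, and Rian in miR-379KO from −0.52 to 0.094, with 0.34 at a mean of at least 50 counts. None of these values was called in the reported fit, and the cause of each turn was not tested. At this depth, differences of genes under 50 counts rest on few reads.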
